A study of Mus musculus with 12 samples.

Results

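Voltage-gated calcium channels were represented on the panel by 5 genes for the pore-forming alpha-1 subunit, *Cacna1c*, *Cacna1d*, *Cacna1e*, *Cacna1g* and *Cacna1h*, among 770 genes in all. They were selected by their gene symbol, with the levels of these genes in the samples already known, and they are all the Cacna1 symbols on the panel. The levels of the 5 genes are therefore given as a description, without a *p*-value. Where it is said how many of them were called changed, the share over the whole panel stands beside the count and nothing is read from it. RNA was measured in 12 murine tissue samples with nCounter, in which colour-coded probes bind RNA molecules and are counted without amplification. The values are normalized signal on a linear scale, and each gene has its own probe, so levels were compared between samples and not between genes.

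*RBS* lesions (n = 5) were ocular lesions of embryos at E18.5 with the genotype Rax-creERT2::Ctnnb1(ex3)Fl/+SmoM2Fl/+, in which tamoxifen was given to the dam at E8.5. Cre, driven by the promoter of the eye field gene *Rax*, removes exon 3 of *Ctnnb1*, which stabilises beta-catenin, and switches on SmoM2, an active form of the Hedgehog transducer Smo. Control eyes (n = 4) were taken at the same age from embryos that carried both floxed alleles, Ctnnb1(ex3)Fl/+SmoM2Fl/+, without Cre. Whether their dams received tamoxifen is not given in the labels. Shh-MBs (n = 3) were hindbrain tumors of 14-day-old hGFAP-cre::SmoM2Fl/+ mice, a model of Sonic hedgehog medulloblastoma in which the human *GFAP* promoter drives Cre and *Ctnnb1* is not altered. Tissue, age and genotype changed together between the tumors and the eyes and cannot be told apart. In whole tissue, fewer cells of a type and less RNA per cell cannot be told apart either. The labels do not say whether the numbered samples of a group came from separate litters, so the error values cover the spread between these samples.

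The alpha-1 subunit forms the calcium-selective pore and carries the voltage sensor of the channel. *Cacna1c* and *Cacna1d* encode Cav1.2 and Cav1.3, the long-lasting L-type channels that couple electrical activity to contraction, secretion and gene expression. *Cacna1e* encodes Cav2.3, the R-type channel of neurons and endocrine cells. *Cacna1g* and *Cacna1h* encode Cav3.1 and Cav3.2, the T-type channels, which open close to the resting potential and support rhythmic firing. L-type and R-type pores assemble with alpha-2-delta and beta subunits, which bring the channel to the membrane and set its gating, whereas T-type pores can conduct without them. In the adult cerebellum Cav3.1 is abundant in Purkinje cells.

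Between 335392 and 716684 counts above background were measured per sample, and 52 to 123 of the 770 genes lay at the lowest value of their sample, where no signal above background was present. None of the calcium channel genes did so (0 of 60 values). Comparisons between groups were made with limma on log2(signal + 1) over all 770 genes, with two-sided Benjamini-Hochberg adjusted *p* and a threshold of 0.05, and a gene past it is called changed. Among all 770 genes, the median log2 difference was 0.17 for *RBS* lesions minus control eyes, 0.53 for *RBS* lesions minus Shh-MBs and -0.22 for Shh-MBs minus control eyes. The comparisons share their groups, so they are not independent of each other. Of the markers of the labelled tissue, none of the 16 listed retina and lens genes was on the panel. The only cerebellar granule lineage marker of 7 on the panel, *Zic2*, had a signal of 924 to 1142 in the Shh-MBs, 255 to 386 in the *RBS* lesions and 223 to 347 in the control eyes.

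The RefSeq promoter table for GRCm38.p6 held 6 windows of 300 bases, from 250 before to 50 after an annotated start, for 3 of the 5 genes: 1 for *Cacna1e*, 3 for *Cacna1c* and 2 for *Cacna1d*. The windows were searched on both strands for a Gli motif (TGGGTGGTC) and a Tcf/Lef motif (CTTTGAT), since both pathways were activated in the *RBS* eyes, and for a GC box (GGGCGG) and a CCAAT box (the letters CCAAT). Neither the Gli nor the Tcf/Lef letters were present in any of the 6 windows, and they occurred in 0.253% and 3.73% of all 32851 windows. The GC box was present in 2 of the 6 windows, against 35.7% of all windows, and the CCAAT box in 2 of 6, against 37.4%. Start site use was not measured. Shown are the window of *Cacna1e*, the gene with the largest difference of the 5 between the eye groups, and the GC-rich window of *Cacna1d*, the window of the 6 with the highest GC content, both 5′ to 3′ on the minus strand with GC boxes in capitals. They lie at chr1:154725871-154726170 and chr14:30353437-30353736.
Cacna1e: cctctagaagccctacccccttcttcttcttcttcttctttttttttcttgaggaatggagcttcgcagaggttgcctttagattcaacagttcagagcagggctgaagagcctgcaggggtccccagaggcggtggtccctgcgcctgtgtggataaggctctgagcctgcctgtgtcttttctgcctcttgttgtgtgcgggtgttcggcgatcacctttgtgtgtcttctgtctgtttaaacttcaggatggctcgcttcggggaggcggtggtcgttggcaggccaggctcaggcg
Cacna1d: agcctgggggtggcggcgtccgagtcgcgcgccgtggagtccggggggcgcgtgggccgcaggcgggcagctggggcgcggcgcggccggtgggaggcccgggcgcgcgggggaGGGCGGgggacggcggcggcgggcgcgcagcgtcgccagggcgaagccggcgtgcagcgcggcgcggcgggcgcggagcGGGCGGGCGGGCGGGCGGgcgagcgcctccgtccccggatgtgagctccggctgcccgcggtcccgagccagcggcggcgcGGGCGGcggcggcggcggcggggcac
The *Cacna1e* window had a GC content of 55.3% with 11 CpG dinucleotides and none of the 4 motifs. The *Cacna1d* window had a GC content of 87.3% with 63 CpG dinucleotides and 6 GC boxes, of which 4 followed each other in steps of 4 bases. The median GC content of all windows was 52.7%.

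The R-type gene *Cacna1e* differed most between the eye groups among the 5 channel genes. Its signal was 5.23, 5.43, 3.53 and 7.38 in the control eyes (5.39 ± 1.57, SD, n = 4). In the *RBS* lesions it was 92.4, 119.9, 122.0, 148.3 and 143.2 (125.2 ± 22.2, SD, n = 5). All *RBS* lesions lay far above all control eyes, and the ratio of the means was 23.2. The control values correspond to only 3.33 to 7.09 counts above background, so the low end of this ratio rests on few molecules, while the *RBS* lesions had 56.3 to 156.5. The log2 difference was 4.32 ± 0.20 (SE), with a 95% interval from 3.87 to 4.76. It was 3.64 with 5 added in place of 1, and 2.57 when all values under 20 were set to 20. The Shh-MBs lay between both groups, at 51.8, 53.9 and 34.6 (46.8 ± 10.6, SD, n = 3), without overlap with either. The log2 difference was 1.41 ± 0.21 (SE) for *RBS* lesions minus Shh-MBs and 2.91 ± 0.25 for Shh-MBs minus control eyes. In the deposited scaling the order of levels, *RBS* lesions over Shh-MBs over control eyes, had no neighbours whose samples overlapped. The step from Shh-MBs to *RBS* lesions was 0.56 with median centring and 0.42, not called, with quantile normalization.

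Of the T-type genes, *Cacna1g* had a higher signal in *RBS* lesions than in the control group. The control eyes had a signal of 140.2, 96.7, 105.5 and 151.1 (123.4 ± 26.4, SD, n = 4). The *RBS* lesions had 246.6, 222.7, 202.2, 235.1 and 241.9 (229.7 ± 17.8, SD, n = 5). The groups did not overlap, and the log2 difference was 0.91 ± 0.15 (SE), with a 95% interval from 0.58 to 1.24. The 3 tumors did not form one level. Shh-MB 1 had a signal of 292.5, the highest of all 12 samples, whereas Shh-MB 2 and 3 had 36.1 and 38.0, the lowest of all. Their mean of 122.2 ± 147.5 (SD, n = 3) therefore describes none of them.

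*Cacna1h*, the second T-type gene of the panel, was the only channel gene of the 5 whose level in *RBS* lesions overlapped with control eyes. Its signal was 79.1, 78.4, 55.6 and 85.5 in the control eyes (74.7 ± 13.1, SD, n = 4). In the *RBS* lesions it was 84.2, 47.9, 65.6, 73.6 and 64.5 (67.2 ± 13.3, SD, n = 5). The log2 difference of -0.16 ± 0.18 (SE) had a 95% interval from -0.57 to 0.26. In the Shh-MBs the signal was 2.51, 16.5 and 13.4 (10.8 ± 7.33, SD, n = 3), below all eyes. The lowest of these, in Shh-MB 1, corresponds to 2.24 counts above background. The log2 difference was 2.81 ± 0.50 (SE) for *RBS* lesions minus Shh-MBs and -2.96 ± 0.56 for Shh-MBs minus control eyes. Without Shh-MB 1 these were 2.08 and -2.24.

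The L-type gene *Cacna1d* had a signal of 85.0, 92.6, 76.8 and 76.1 in the control eyes (82.6 ± 7.77, SD, n = 4). In the *RBS* lesions it was 151.5, 113.4, 115.8, 168.8 and 119.4 (133.8 ± 24.9, SD, n = 5). All *RBS* lesions lay above all control eyes, by 0.67 ± 0.14 (SE) on the log2 scale, and *RBS* lesions 1 and 4 were the highest. The Shh-MBs had 121.2, 51.1 and 60.0 (77.4 ± 38.2, SD, n = 3). As for *Cacna1g*, Shh-MB 1 was within or above the range of the *RBS* lesions, and the other tumors were below all eyes.

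*Cacna1c*, the second L-type gene, had a signal of 17.0, 8.47, 15.2 and 20.9 in the control eyes (15.4 ± 5.19, SD, n = 4). In the *RBS* lesions it was 26.7, 27.6, 30.3, 27.8 and 29.8 (28.4 ± 1.53, SD, n = 5). The lesions were close to each other and all above the control eyes, with a log2 difference of 0.91 ± 0.21 (SE). It was 0.47 when values under 20 were set to 20, which applies to 3 of the 4 control eyes. The Shh-MBs had 6.99, 19.3 and 24.4 (16.9 ± 8.94, SD, n = 3) and overlapped with the control eyes. For this gene Shh-MB 1 was the lowest of all 12 samples, with 6.24 counts above background, followed by control eye 2 with 8.35.

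**Figure D1:**
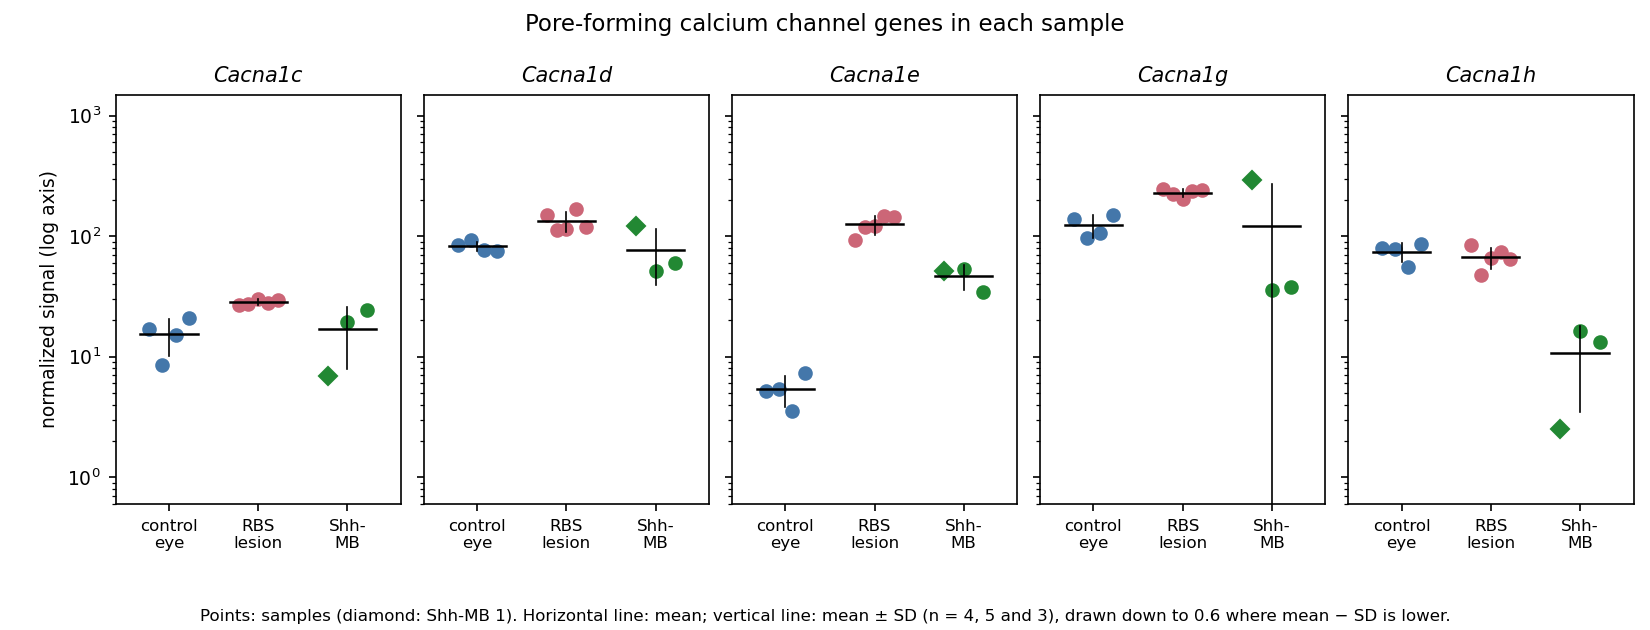
Normalized signal (log axis) of the 5 pore-forming calcium channel genes in each sample of the control eyes, *RBS* lesions and Shh-MBs, with the mean and SD of each group and Shh-MB 1 as a diamond. *Cacna1e* was 3.53 to 7.38 in control eyes and 92.4 to 148.3 in *RBS* lesions, and *Cacna1g* was 292.5 in Shh-MB 1 and 36.1 and 38.0 in the other tumors.

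For *RBS* lesions against control eyes, 4 of the 5 genes were called, all higher, where 33.0% of the 770 genes were called higher and 18.2% lower (254 and 140 genes). With median centring the split over the panel was 177 and 177, and with quantile normalization 187 and 179. The same 4 genes had no overlap between the groups, against 27.5% of the panel in that direction. The 4 genes were also higher after centring each sample on its median (0.49 to 4.14 on the log2 scale) and after quantile normalization (0.55 to 4.16), and the values for *Cacna1h*, which was called under neither, were -0.34 and -0.31. Leaving out any single sample gave 4 calls in each case. With all 12 samples in one fit there were 3, since *Cacna1g*, whose SE then was 0.51, was not called, and with the methods' t-test and step-down Bonferroni adjustment there was 1.

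Between *RBS* lesions and Shh-MBs, the size of the differences depended on the scaling. The log2 differences were 0.88 ± 0.34 (SE) for *Cacna1c*, 0.87 ± 0.29 for *Cacna1d* and 1.61 ± 0.64 for *Cacna1g*, beside those of *Cacna1e* and *Cacna1h* above. *Cacna1d*, *Cacna1e* and *Cacna1h* were called higher in *RBS* lesions (3 of 5), where 48.1% of the panel was called higher and 12.7% lower (370 and 98 genes). This split turned to 181 and 319 with median centring and to 204 and 234 with quantile normalization. *Cacna1c*, *Cacna1e* and *Cacna1h* had no overlap, against 47.0% of the panel higher without overlap. After centring on the median, the differences fell to 0.03 for *Cacna1c*, 0.02 for *Cacna1d*, 0.56 for *Cacna1e*, 0.77 for *Cacna1g* and 1.96 for *Cacna1h*. Quantile normalization gave -0.45 for *Cacna1c*, 0.003 for *Cacna1d*, 0.42 for *Cacna1e*, 0.71 for *Cacna1g* and 1.59 for *Cacna1h*, with no gene of the 5 called. These scalings moved the median difference of all genes from 0.53 to -0.32 and -0.10. *Cacna1d* was not past the threshold when *RBS* lesion 1, *RBS* lesion 4, Shh-MB 2 or Shh-MB 3 was left out, and without Shh-MB 1 all 5 genes were called, with *Cacna1c* at 0.37 and *Cacna1g* at 2.597.

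For Shh-MBs against control eyes, *Cacna1e* was called higher and *Cacna1h* lower, where 9.61% of the panel was called higher and 31.4% lower (74 and 242 genes). With median centring the split turned to 311 and 139, and with quantile normalization to 221 and 147. *Cacna1h* was not called with quantile normalization (-1.90). Both genes had no overlap between the groups, as had 12.2% of the panel that were higher and 36.0% that were lower. The log2 differences of the other genes were 0.03 ± 0.46 (SE) for *Cacna1c*, -0.19 ± 0.29 for *Cacna1d* and -0.70 ± 0.74 for *Cacna1g*. These changed sign or size with the scaling, to 0.70, 0.47 and -0.04 after centring on the median. Without Shh-MB 1, 4 genes were called, with *Cacna1d* (-0.56) and *Cacna1g* (-1.68) lower in addition.

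**Figure D2:**
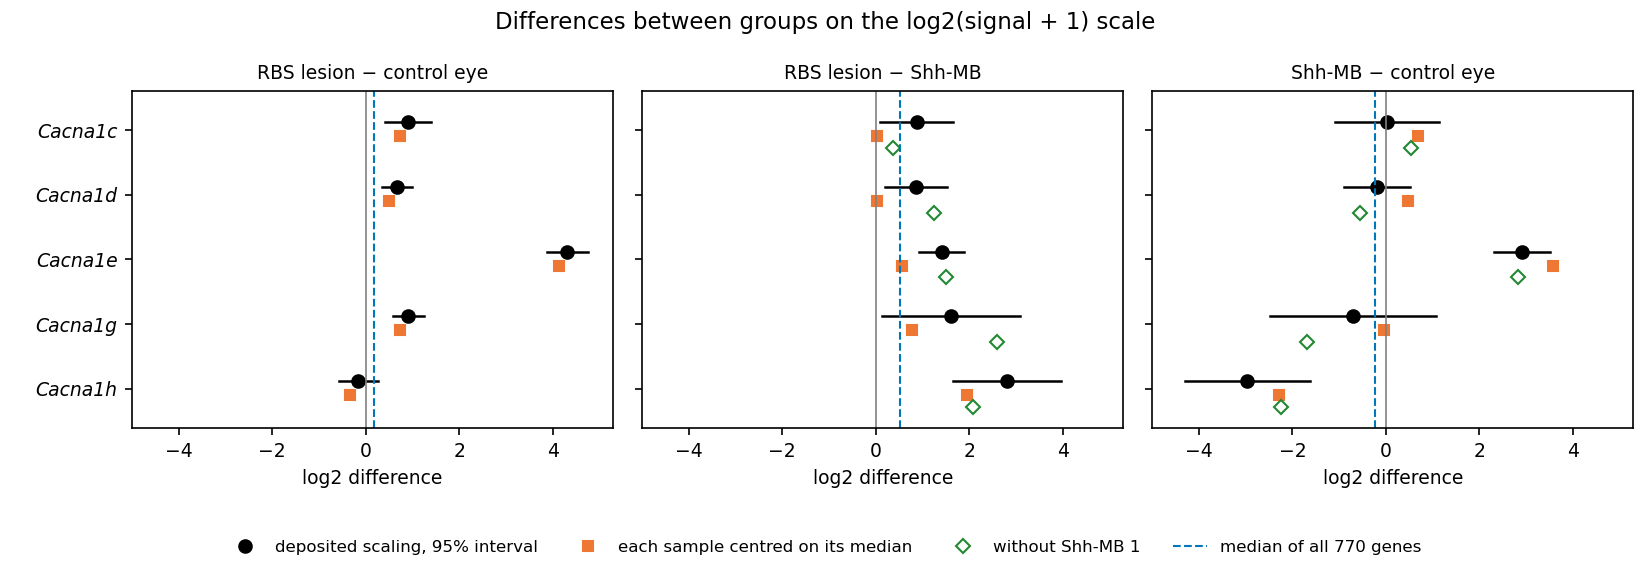
Log2 differences of the 5 genes for each pair of groups, as black points with 95% intervals for the deposited scaling, orange squares after centring each sample on its median, and open diamonds without Shh-MB 1. The dashed line marks the median of all 770 genes, which was 0.17, 0.53 and -0.22, and *Cacna1e* at 4.32 lies farthest from it in the first panel.

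Shh-MB 1 differed from the mean of the other tumors by more than 2 on the log2 scale in *Cacna1g* (2.95) and *Cacna1h* (-2.18), and by less in *Cacna1d* (1.12), *Cacna1c* (-1.51) and *Cacna1e* (0.26). On the linear scale *Cacna1g* was 7.90 times and *Cacna1d* 2.18 times the mean of Shh-MB 2 and 3, whereas *Cacna1h* and *Cacna1c* were lower, with the mean of the others 5.95 and 3.13 times the level in Shh-MB 1. *Cacna1e* was similar, at 1.17 times. Among all 770 genes, 32 differed by more than 2 on the log2 scale from the mean of the other tumors, 30 of them higher, while 14 genes did so for Shh-MB 2 and 6 for Shh-MB 3. Of the 10 auxiliary subunit genes, 3 differed by more than 2 on the log2 scale in the same direction as *Cacna1g*, with *Cacna2d2* at 314.9 against 12.7 and 23.5, *Cacnb4* at 116.7 against 20.2 and 36.3, and *Cacnb2* at 86.5 against 13.7 and 13.4. *Cacna2d1* did not, at 281.3 against 327.5 and 289.0, and *Cacnb3* and *Cacna2d3* were 1.30 and 1.53 times the mean of the others. *Cacng4* was 1.66 times that mean, and the remaining 3 were at the lowest value. The part of other cell types in the levels of Shh-MB 1 was not tested. *Zic2* was similar in the 3 tumors, at 1060, 1142 and 924. Summed over the 5 neuron markers of the panel the signal was 921 in Shh-MB 1 and 715 and 661 in the others. Of these markers, *Grin1* was 66.3 against 24.9 and 26.1. *Mapt*, *Grin2a* and *Gria3* were also higher in Shh-MB 1 than in both other tumors, and *Grin2b* lay between them. Over the 9 mesenchyme markers the sum was 1748 against 2355 and 2410. Over the 5 blood and immune markers it was 236.5 against 131.5 and 116.0, mostly from *Csf1r* (200.7 against 97.0 and 88.0). *Csf2rb* was also higher in Shh-MB 1, *Tlr4* and *Gata1* were lower, and *Cd14* lay between the others.

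**Figure D3:**
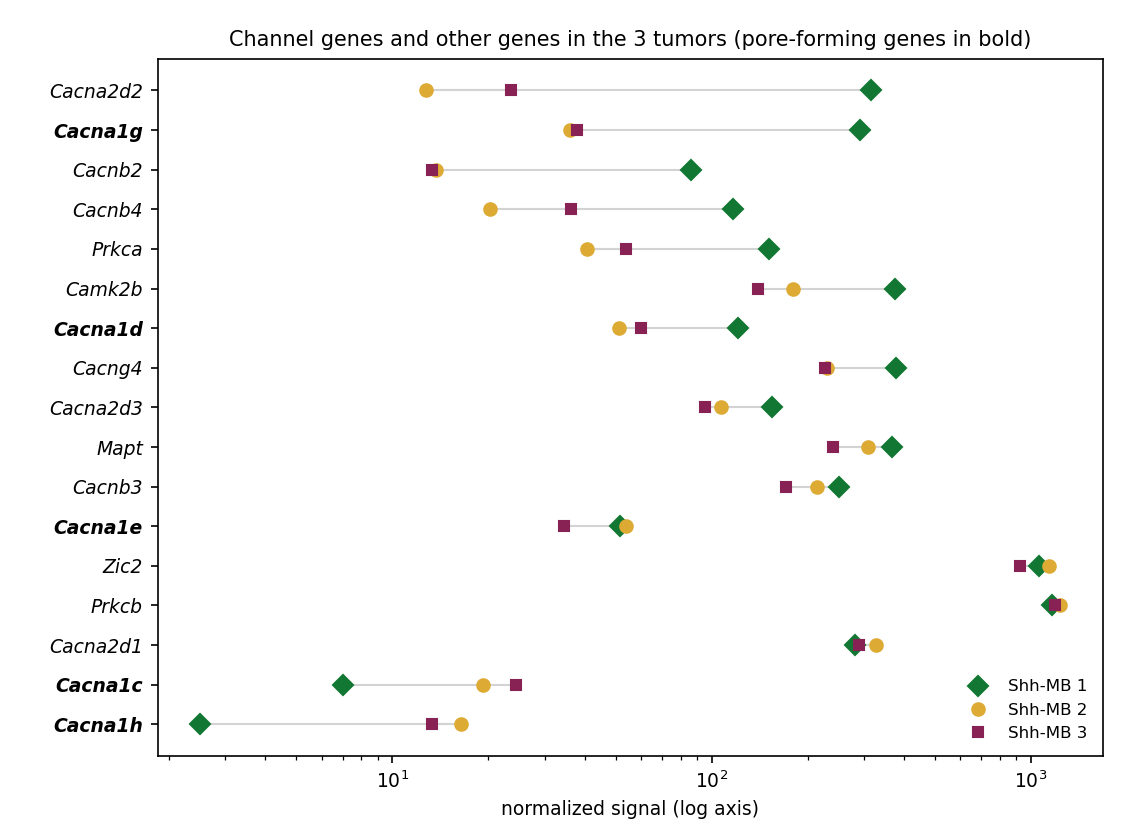
Normalized signal (log axis) in Shh-MB 1 (diamonds), Shh-MB 2 (circles) and Shh-MB 3 (squares) for the pore-forming genes (bold), the auxiliary subunit genes above the lowest value and 5 further genes, ordered by the difference of Shh-MB 1 from the others. *Cacna2d2* (314.9) and *Cacna1g* (292.5) lie far to the right in Shh-MB 1, and *Cacna1h* (2.51) lies to the left.

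The auxiliary subunits were compared as a list of 16 genes, of which 10 were on the panel. In *RBS* lesions against control eyes, 5 of the 10 were called higher and 0 lower, where the panel had 33.0% and 18.2%. With all 12 samples in one fit 3 were called, and with the methods' t-test and step-down Bonferroni adjustment 1 was. The median log2 difference was 0.55 over the 10 genes and 0.17 over the panel. *Cacna2d2*, an alpha-2-delta subunit that supports surface expression of the pore, rose from 143.0 ± 30.9 to 446.7 ± 67.4 (SD, limma adjusted *p* = 7.0e-05). *Cacna2d3*, of the same family, rose from 110.8 ± 14.3 to 187.3 ± 23.2 (adjusted *p* = 0.00098). The beta subunits bind the pore on its intracellular side. Of these, *Cacnb4* rose from 19.3 ± 2.58 to 62.7 ± 17.6 (adjusted *p* = 0.00026), *Cacnb2* from 42.3 ± 12.02 to 100.8 ± 25.1 (adjusted *p* = 0.0041) and *Cacnb3* from 489.2 ± 25.1 to 840.7 ± 75.0 (adjusted *p* = 0.00015). The groups did not overlap for these 5 genes. *Cacna2d1* was 74.9 ± 6.10 in control eyes and 86.7 ± 22.5 in *RBS* lesions (adjusted *p* = 0.42). The gamma subunit gene *Cacng4*, whose product also serves as a partner of AMPA receptors, was 402.7 ± 62.7 and 509.5 ± 57.1 (adjusted *p* = 0.059).

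Of the remaining auxiliary genes, *Cacng6* was at the lowest value in all 12 samples. *Cacna2d4*, known from photoreceptors, was at the lowest value in 2 of 4 control eyes, 3 of 5 *RBS* lesions and each of the tumors. *Cacng1*, the gamma subunit of skeletal muscle, was 13.9 ± 9.37 in control eyes and 14.1 ± 7.10 in *RBS* lesions, and each tumor was at its lowest value.

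Against Shh-MBs, 6 of the 10 auxiliary genes were called higher in *RBS* lesions and 1 lower, close to the 48.1% and 12.7% of the panel. There were 3 higher and 2 lower with median centring, and 3 and 1 with quantile normalization. *Cacna2d1* was the one that was lower, with 86.7 ± 22.5 in the lesions and 299.3 ± 24.7 in the tumors (adjusted *p* = 9.8e-05). It was also higher in Shh-MBs than in control eyes (log2 difference 1.99 ± 0.11, SE, adjusted *p* = 2.0e-05), in all 3 tumors. *Cacnb3* was lower in Shh-MBs than in either eye group, with log2 differences of -1.22 ± 0.14 (SE, adjusted *p* = 0.00060) from control eyes and 2.00 ± 0.15 for *RBS* lesions minus Shh-MBs (adjusted *p* = 1.3e-05). With median centring these were -0.55 and 1.15. Between Shh-MBs and control eyes, 1 auxiliary gene was called higher and 2 lower, where the panel had 9.61% and 31.4%, the second being *Cacng1* (adjusted *p* = 0.013). With median centring, 4 were higher and 2 lower. Without Shh-MB 1 the latter comparison had 6 calls in place of 3, and without Shh-MB 3 the comparison with *RBS* lesions had 4 in place of 7.

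**Figure D4:**
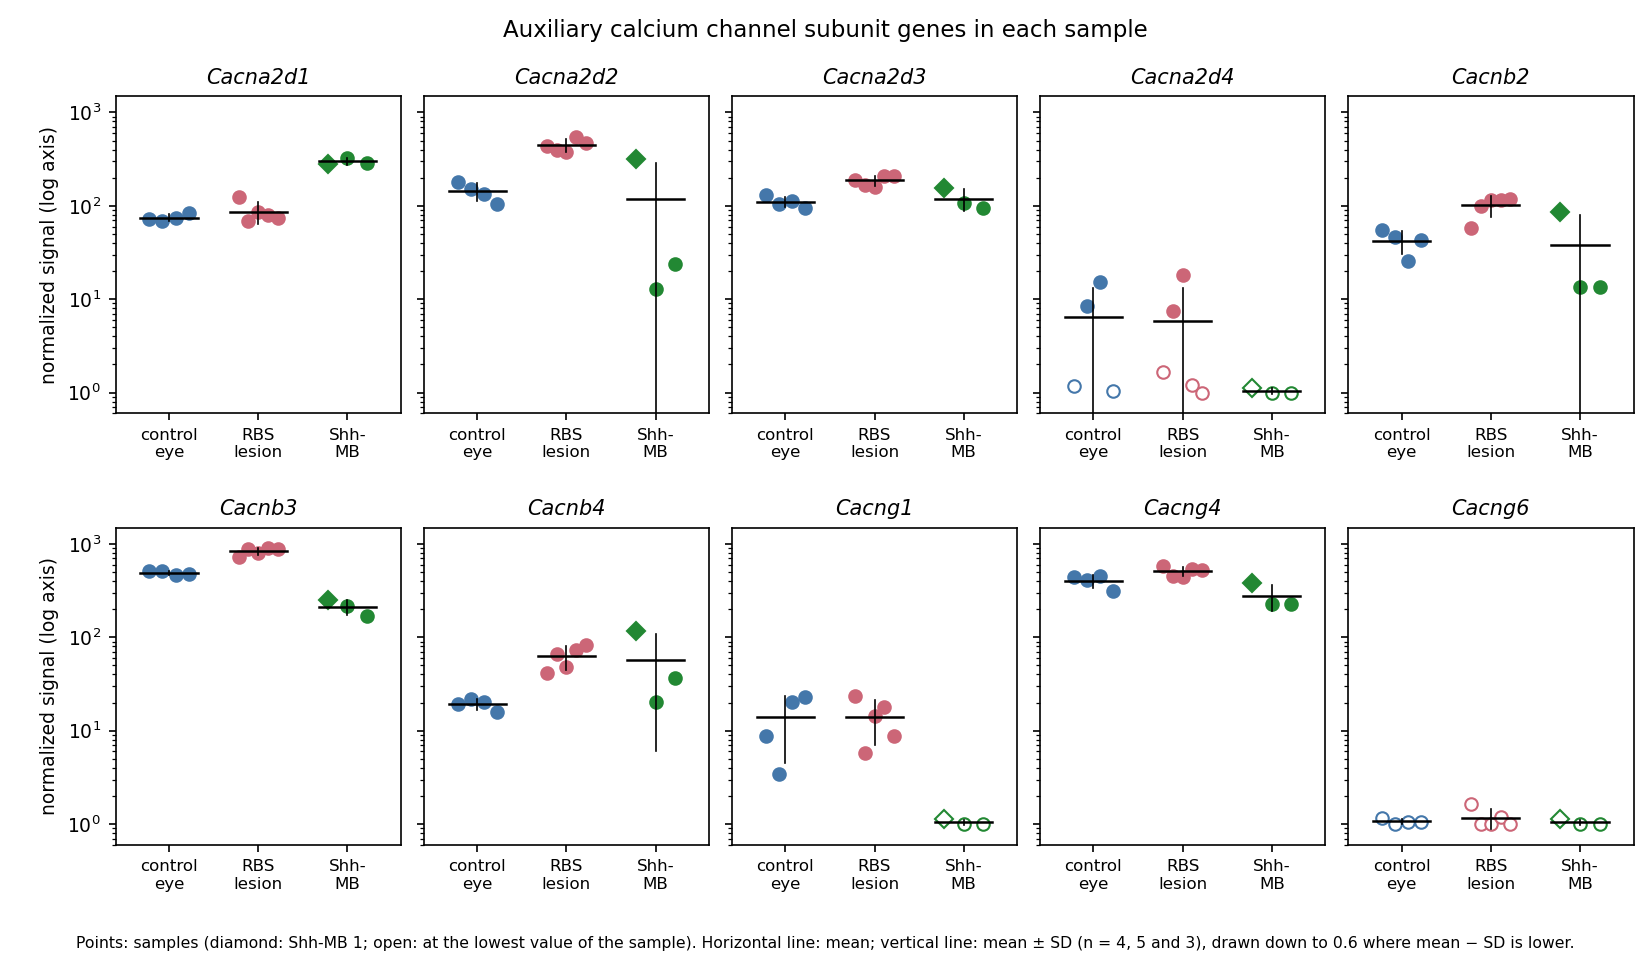
Normalized signal (log axis) of the 10 auxiliary subunit genes in each sample, with group mean and SD, Shh-MB 1 as a diamond and open symbols at the lowest value of a sample. *Cacna2d2*, *Cacna2d3*, *Cacnb2*, *Cacnb3* and *Cacnb4* are higher in all 5 *RBS* lesions than in all 4 control eyes, and *Cacna2d1* is near 299 in the Shh-MBs against 74.9 in control eyes.

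Of 30 listed genes for proteins that sense calcium or act behind it, 11 were on the panel. In *RBS* lesions against control eyes, 9 were called higher and 1 lower, where the panel had 33.0% and 18.2%. There were 6 and 1 with median centring, 4 and 0 with a replicate block, and 2 and 0 with the methods' t-test and step-down Bonferroni adjustment. Over the whole panel these settings gave 177 and 177, 192 and 109, and 41 and 31 genes, in the same order. The median log2 difference of the 11 genes was 0.65, against 0.17 over the panel. Among the largest rises were those of *Ppp3r2*, a regulatory subunit of the calcium-dependent phosphatase calcineurin, and *Camk2b*, the beta subunit of calcium/calmodulin-dependent kinase II. *Camk2b* rose from 118.3 ± 16.5 to 382.8 ± 38.3 without overlap (log2 difference 1.69 ± 0.12, SE, adjusted *p* = 9.1e-06). *Ppp3r2* was between 1.01 and 1.71 in control eyes, 2 of which were at their lowest value, and between 1.64 and 11.4 in *RBS* lesions (adjusted *p* = 0.0076), so its difference rests on few counts. *Ppp3ca*, a catalytic subunit of calcineurin, was the 1 gene that fell, from 1133 ± 81.7 to 945 ± 47.5 (log2 difference -0.26 ± 0.08, SE, adjusted *p* = 0.027). It was not past the threshold when *RBS* lesion 2, 3 or 5 or control eye 1, 2 or 3 was left out, nor with all 12 samples in one fit, with a replicate block or with the methods' t-test and step-down Bonferroni adjustment. Against Shh-MBs, 6 of the 11 were higher in *RBS* lesions and 1 lower, beside 48.1% and 12.7% of the panel. This became 2 and 3 with median centring, 2 and 2 with quantile normalization, and 3 and 2 when each total was taken without the 3 most abundant genes. Between Shh-MBs and control eyes 2 were higher and 2 lower in the tumors, beside 9.61% and 31.4%. Under median centring, the latter comparison had 6 higher and 1 lower.

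Of 14 listed neuron markers, *Mapt*, *Grin1*, *Grin2a*, *Grin2b* and *Gria3* were on the panel, and 4 of these 5 were called higher in *RBS* lesions than in the controls, where 33.0% of the panel was. Their summed signal was 671 to 819 in control eyes and 2308 to 3040 in *RBS* lesions, without overlap, and 661 to 921 in Shh-MBs. The sum does not stand for each marker, since *Grin1*, *Grin2b* and *Gria3* were called higher in Shh-MBs than in control eyes (log2 differences 1.91, 0.93 and 1.80) and *Mapt* lower (-1.02), that is 3 and 1 of the 5 where the panel had 9.61% and 31.4%. *Grin2b*, an NMDA receptor subunit, had a log2 difference of 3.21 ± 0.22 (SE, adjusted *p* = 6.8e-06) between the eye groups. None of the 5 markers was at the lowest value in every sample of a group. The part of neuronal RNA in the channel levels was not tested. The 9 mesenchyme markers summed to 26360 to 59350 in control eyes, 21210 to 38370 in the lesions and 1748 to 2410 in the tumors. Between *RBS* lesions and control eyes these sums overlapped. Of the 9 markers 1 was called higher and 2 lower, where the panel had 33.0% and 18.2%. Their median log2 difference was -0.08, against 0.17 over the panel. Against control eyes, 7 of the 9 were called lower in Shh-MBs, where 31.4% of the panel was called lower and 9.61% higher, whereas *Pdgfra* was higher, at 981.8 ± 184.2 (SD, n = 3) against 348.7 ± 119.6 (n = 4, limma adjusted *p* = 0.0051). The 5 blood and immune markers on the panel, of 9 listed, summed to 87.2 to 131.6, 176.7 to 245.2 and 116.0 to 236.5. No muscle marker of 8 listed was on the panel. The part of these cells was not tested either.

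The genes with the most similar profile were found by the root mean square difference of log2 values, each centred on the mean of its gene, over the 12 samples and among 591 genes above the lowest value in every sample. For *Cacna1e* these were *Grin2b* (0.86), *Ppp2r2b* (0.87) and *Plcb1* (0.87), and all differed from it by more than the nearest genes of the other channels did. For *Cacna1g* they were *Cacnb2* (0.40), *Prkca* (0.44) and *Cdkn2b* (0.46). *Cacna1d* was nearest to *Kit* (0.19), *Crlf2* (0.21) and *Ppp2r1a* (0.23), and *Cacna1c* to *Amer1* (0.42), *Prkar2a* (0.43) and *Edc3* (0.43). *Cacna1h* was nearest to *Tgfb3* (0.47), *Wnt6* (0.49) and *Gpc4* (0.55). Among the 5 channel genes, *Cacna1d* and *Cacna1g* were the most similar pair (0.57), and *Cacna1e* and *Cacna1h* the least (2.50). With group means in place of the samples, 3 of these 15 genes were named again, so the ranking depends on single samples.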

How the data were processed

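RNA from fresh frozen tissue of 12 murine samples was measured on the nCounter Mouse PanCancer Pathways panel. The authors compiled and normalized the counts with the nSolver and Advanced Analysis software. What they deposited is a linear normalized signal, from which a background had been subtracted. Their low values lie on evenly spaced steps of 0.81 to 1.64 per sample. The counts above background were taken as the signal over this step, so low values rest on few counts. The background setting is not given in the sources used here.

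Values were analysed as log2(signal + 1) with limma 3.58.1 in R 4.3.3, each pair of groups by itself, without a filter. The fit was tested on simulated data. Intervals are 95% intervals of the log2 difference. The plots were made in Python 3.11.15 with matplotlib 3.10.9.

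The members, the gene lists and the tests were chosen with earlier results of these data known. Named genes were the 5 channel genes, every auxiliary subunit gene of the panel, of the calcium-dependent effectors the 3 largest rises and 3 largest falls past the threshold in *RBS* lesions against control eyes, where only 1 fell and 1 of the rises is not reported here, and for each channel gene the 3 genes with the most similar profile. Markers and the genes that separate Shh-MB 1 were named in addition. Alternatives were a pseudocount of 5, median centring, quantile normalization, scaling to each total after dropping the 3 most abundant genes, a filter at a mean of log2 of 20, all 12 samples in one fit, a replicate block, the methods' t-test with 2 adjustments, and leaving out each sample. Setting values under 20 to 20 was added after the data were seen.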

Additional observations from a re-analysis of the deposited data

Results flagged for a closer look

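*Cacnb2* in *RBS* lesion 1 had a signal of 57.9, whereas the other 4 *RBS* lesions had 98.9 to 117.6. On the log2(signal + 1) scale these values were 5.88 and 6.642 to 6.889. On that scale the gap to the nearest lesion was 0.755 of the whole range of the group, above Dixon's critical value of 0.71 for 5 samples. The check was run on the log2 scale only, not on the linear signal. The signal of *RBS* lesion 1 was still above the highest control eye, and this lesion had the lowest depth of the 12 samples, with 335392 counts above background. In all, 52 groups of values from the control eyes and *RBS* lesions were checked in this way, of which chance marks about 1 in 20. The Shh-MBs, with 3 samples, were not checked, although *Cacna1g* (292.5 against 36.1 and 38.0) and *Cacnb2* (86.5 against 13.7 and 13.4) were far higher in Shh-MB 1.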

How the results depend on the processing

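Over all alternatives, 397 values stayed within the spread between replicates or, for counts of calls, within 1.5 times, 59 moved by more, and no called difference of the 5 channel genes changed its sign. Among other genes called for *RBS* lesions minus Shh-MBs, median centring turned *Cacna2d3* from 0.67 to -0.18, *Ppp3cb* from 0.40 to -0.45, *Ppp3r1* from 0.59 to -0.26 and *Ppp3cc* from 0.79 to -0.06, and for Shh-MBs minus control eyes *Ppp3cc* from -0.50 to 0.17. The cause was not tested. For *RBS* lesions minus control eyes, *Cacna1c* was 0.56 with quantile normalization and 0.47 with values under 20 set to 20, and *Cacna1e* was 3.64 with a pseudocount of 5 and 2.57 with values under 20 set to 20. For *RBS* lesions minus Shh-MBs, median centring gave 0.031, 0.020, 0.56 and 1.96 for *Cacna1c*, *Cacna1d*, *Cacna1e* and *Cacna1h*, and quantile normalization gave -0.45, 0.0030, 0.42 and 1.59. *Cacna1e* was 1.04 with each sample scaled to its total after dropping the 3 most abundant genes, and *Cacna1h* was 1.68 with values under 20 set to 20. For Shh-MBs minus control eyes, centring on the median gave 0.47 for *Cacna1d*, and quantile normalization gave 0.54 for it and 1.01 for *Cacna1c*. *Cacna1e* was 2.31 with a pseudocount of 5, 3.58 with median centring, 3.74 with quantile normalization and 1.16 with values under 20 set to 20, and *Cacna1h* was -1.90 with quantile normalization and -1.83 with values under 20 set to 20.

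In the order *RBS* lesions against control eyes, *RBS* lesions against Shh-MBs, and Shh-MBs against control eyes, the methods' t-test with step-down Bonferroni adjustment called 72, 80 and 36 of all genes (limma: 394, 468 and 316), 1, 0 and 0 channel genes, 1, 1 and 1 auxiliary genes and 2, 1 and 2 effectors. Its *p* was taken from the *t* distribution, and permutations were not run. With Benjamini-Hochberg adjustment it called 1 channel gene and 3 auxiliary genes in the second comparison, and 1 channel gene and 2 effectors in the third. Quantile normalization gave 0 channel genes, 4 auxiliary genes and 4 effectors in the second, and 1 channel gene and 5 auxiliary genes in the third. Median centring gave 6 auxiliary genes and 7 effectors in the third. Without genes with a mean under log2 of 20, 5 channel genes were called in the second and 1 in the third. With all 12 samples in one fit, 3 auxiliary and 3 channel genes were called in the first, without *Cacna1g*, and 5 channel genes in the second. With values under 20 set to 20, 2 effectors were called in the third. Group means kept 3 of 15 similar genes.

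Replicate numbers were taken only as names of the samples. Same-numbered samples correlated with r from -0.15 to 0.19 in their deviations from the group means, and at most 2 of 4 pairs correlated best with their own number. With 3 or 4 pairs per comparison, these values cannot exclude a pairing. With a replicate block, 4, 4 and 2 effectors were called in place of 10, 7 and 4. The whole panel then had 301 calls in place of 394 in the first comparison.

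When each sample was left out in turn, the log2 differences for *RBS* lesions minus control eyes ranged from 4.16 to 4.46 for *Cacna1e*. Channel calls were 4 throughout in the first comparison, 2 to 5 in the second and 2 to 4 in the third, with 5 and 4 reached without Shh-MB 1. Auxiliary calls were 4 to 8 in the second, the fewest without Shh-MB 3, and 3 to 6 in the third, the most without Shh-MB 1. Few counts, under 10 above background, limit *Cacna1e* in control eyes, *Cacna1h* in Shh-MB 1 and *Cacna1c* in Shh-MB 1 and control eye 2. Over all genes, the control eyes had 590200 to 716684 counts above background and the *RBS* lesions 335392 to 637795.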
